A study of Mus musculus with 8 samples.

Results

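The 9 genes Amh, Amhr2, Inha, Inhba, Inhbb, Fshr, Shbg, Clu and Trf encode hormones, hormone subunits, receptors and secreted carrier proteins linked to the Sertoli cell, the somatic cell that nurses the germ cells in the seminiferous tubule. They were chosen by symbol, and all 9 were among the 17121 genes of the deposited table. Expression was measured by RNA-seq of mouse testis in 4 libraries with the genotype label N6amt1-SKO and 4 with the label CTL, in a study of how N6AMT1, a methyltransferase, acts in the making of sperm. Both groups carry the tissue label testis, although the extraction protocol speaks of heart. The expansion of SKO, the Cre driver, the controls' alleles, age, strain and any pooling of animals were not given in the sources used here. Nor did they say that each library is a different mouse, so a p-value here speaks only of variation among these libraries, part of which may be technical.

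Follicle-stimulating hormone (FSH) from the pituitary acts on Sertoli cells through its receptor FSHR and cyclic AMP. Inhibin, made of an alpha subunit (Inha) and a beta subunit (Inhba or Inhbb), is secreted by Sertoli cells and lowers FSH release, whereas dimers of beta subunits are activins. Immature Sertoli cells make much anti-Müllerian hormone (AMH), which acts through AMHR2 and falls at puberty. Mature Sertoli cells secrete androgen-binding protein (Shbg), clusterin (Clu) and transferrin (Trf), which carry steroids, lipids and iron.

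The values are read counts that had been scaled per library before deposit, here normalised with trimmed-mean (TMM) factors, and column totals were 94.2 to 103 M (M, mega). In the 6 libraries where the scaling factor could be read clearly they stood for about 40.6 to 70.1 M reads, and a weaker signal put CTL 1 and CTL 2 at 258 and 225 M. The targeted gene did not check the genotype labels. N6amt1 averaged 582 ± 31.1 in SKO libraries and 513 ± 84.6 in CTL libraries (SD, n = 4 each; limma adjusted p = 0.437), and a sum over the whole gene cannot show a deleted exon. Ribosomal 18S RNA took 0.72% to 0.97% of the values in SKO 4, CTL 3 and CTL 4, against 0.17% to 0.27% in the other 5 libraries. These sets of 3 and 5 libraries cross the groups, and values of the 9 genes are also given within them, since several stood apart between the sets. The share of mitochondrial genes was 2.11% to 2.33% in SKO 1 to 3, 4.53% in SKO 4 and 1.13% to 1.99% in CTL libraries. Their part in the results was not tested. Sums of the 8 germ cell markers were 299750 to 341780 in SKO libraries and 377970 to 464670 in CTL libraries. Of the 6 heart muscle markers 3 were in the table, with 1 risen (Tnnt2), a median log2 fold change of 0.70 and sums of 1269 to 2009 in SKO libraries and 630 to 988 in CTL libraries. None of 6 liver plasma protein genes was in the table.

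Of the 9 genes, 5 rose in SKO libraries (Amh, Amhr2, Inhbb, Fshr and Shbg) and 0 fell, while Inha, Inhba, Clu and Trf did not pass. Over all 17066 genes tested, 11.9% rose and 7.93% fell (limma, two-sided, Benjamini-Hochberg adjusted p below 0.05), so that 60.1% of calls were higher in SKO. That share was 49.2% with median-ratio factors and 91.5% with library totals. These called 4 and 7 of the 9 genes higher, where 9.39% and 28.6% of all genes rose. All 9 log2 fold changes were positive, with a median of 0.84 against 0.04 over all genes, but only 4 of 9 were when libraries were scaled to other Sertoli markers, as given below. For 3 of them (Amh, Inhbb and Shbg) every SKO library lay above every CTL library, which held for 15.6% of all genes. In bulk testis, more Sertoli cells, more RNA per Sertoli cell and a smaller share of germ cell RNA cannot be told apart.

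**Figure D1:**
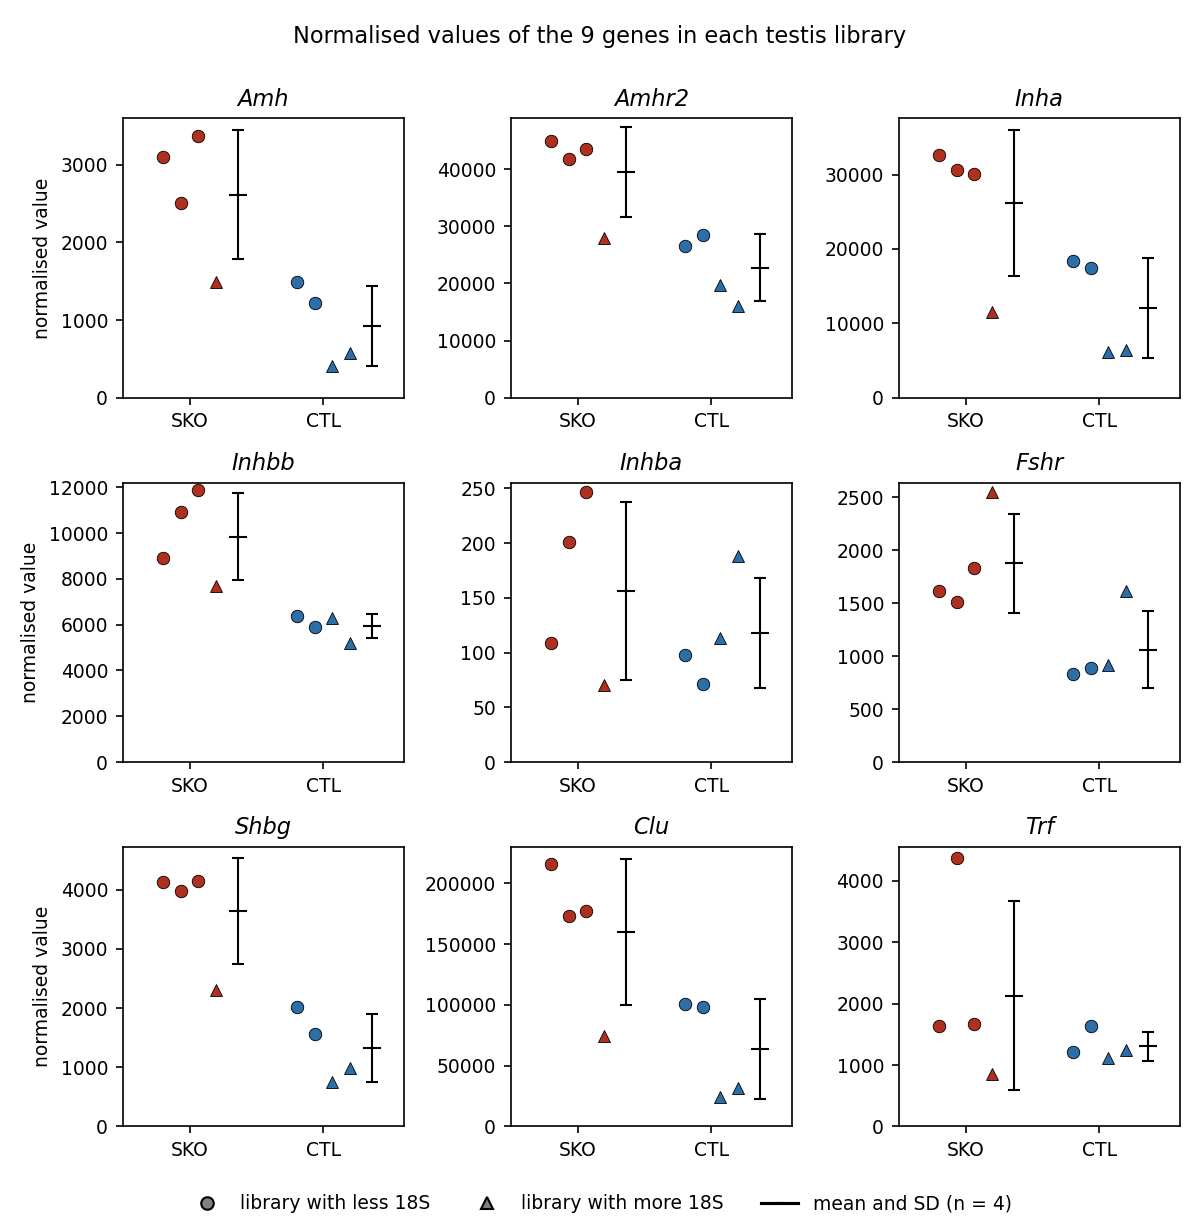
Normalised value of each of the 9 genes in every library (linear axes from 0), with SKO left of CTL; circles are the 5 libraries with less 18S RNA, triangles the 3 with more, and bars the mean and SD of 4 libraries. In Amh, Shbg, Inha, Clu and Amhr2 the triangles sit below the circles of their own group, and in Fshr above them.

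The FSH receptor gene is printed first, since its start region is the only one of the 6 available (Fshr, Amhr2, Inha, Inhba, Inhbb and Shbg; RefSeq, GRCm38.p6) to hold the letters CACGTG, an E-box through which upstream stimulatory factors (USF) are known to act on Fshr. In capitals is the E-box, which begins 61 bases before the annotated start, within the 250 bases before it (chr17:89200676-89200925, minus strand).
Fshr: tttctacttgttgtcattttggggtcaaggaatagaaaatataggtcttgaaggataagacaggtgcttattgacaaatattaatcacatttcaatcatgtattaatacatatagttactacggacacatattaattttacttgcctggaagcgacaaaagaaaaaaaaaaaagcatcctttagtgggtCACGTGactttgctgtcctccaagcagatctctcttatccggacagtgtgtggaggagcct
The letters AAGGTCA, which the nuclear receptor NR5A1 (steroidogenic factor) binds, were found in the Amhr2 window only, 231 bases before the start site that the promoter table uses (102445367). They are in capitals in 30 bases around them (chr15:102445125-102445154, plus strand). RefSeq also has an Amhr2 start farther upstream, so these bases lie inside the annotated gene and not before its first base.
Amhr2: caccttcttccAAGGTCAgtaggggtagag
Read on both strands, CACGTG was in 6.02% and AAGGTCA in 4.08% of 32851 such windows of 250 bases across the genome's genes. CAGGTCA was in the Inha window (4.12% of all windows) and AGATAA, bound by GATA factors, in that of Shbg (9.99%), while AACAAT (SOX factors, 9.42%) and TGACG (core of the cyclic AMP response element, 17.8%) were in none of the 6. CAGGTCA and AAGGTCA share their last 6 letters. The windows of Amhr2, Inha, Inhba and Shbg end at start sites 365, 532, 7595 and 121 bases inside the annotated gene, and those of Fshr and Inhbb at its first base. A match is a description of letters and does not show binding.

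Amh, the hormone gene (GRCm38.p6, chromosome 10, 80805240 to 80807679), had normalised values of 3093, 2507, 3372 and 1490 in SKO 1 to 4, against 1486, 1224, 403 and 571 in CTL 1 to 4. The groups did not overlap, but the lowest SKO value, in SKO 4, was just above the highest CTL value, in CTL 1. The means were 2615 ± 832 in SKO libraries and 921 ± 517 in CTL libraries (SD, n = 4 each), a log2 fold change of 1.63 (SE 0.42, 3.09-fold, limma adjusted p = 0.0284). Its receptor gene Amhr2 (chromosome 15, 102445002 to 102454640) had 44970, 41745, 43524 and 27976 in SKO 1 to 4, against 26566, 28568, 19754 and 15965 in CTL 1 to 4. SKO 4 lay between the CTL values, and the other 3 SKO libraries lay above all of them. Amhr2 was 1.76-fold higher (log2 fold change 0.81, SE 0.23, limma adjusted p = 0.0347). Amh minus Amhr2, as log2 values not divided by length, averaged -3.96 ± 0.23 in SKO libraries and -4.77 ± 0.61 in CTL libraries (SD, n = 4 each), given with no test; the groups overlapped, with SKO 4 at -4.23 and CTL 1 at -4.16.

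Inha, the alpha subunit that only inhibins contain (chromosome 1, 75507077 to 75510366), had 32697, 30611, 30035 and 11588 in SKO 1 to 4, against 18432, 17434, 6087 and 6405 in CTL 1 to 4. Libraries with more 18S were low in both groups, and SKO 4 fell below CTL 1 and CTL 2. Over all 8 libraries Inha did not pass (log2 fold change 1.20, SE 0.46, limma adjusted p = 0.0895). Inhbb, the beta B subunit of inhibin B and activin B (chromosome 1, 119415463 to 119422248), had 8908, 10913, 11876 and 7698 in SKO 1 to 4, against 6375, 5919, 6272 and 5201 in CTL 1 to 4. The groups did not overlap and the CTL libraries lay close together. Inhbb rose 1.64-fold, from means of 9849 ± 1893 in SKO libraries against 5942 ± 531 in CTL libraries (SD, n = 4 each; log2 fold change 0.71, SE 0.16, limma adjusted p = 0.0197). Inhba, the beta A subunit (chromosome 13, 16004256 to 16031609), was scarce, with 109, 201, 246 and 70.3 in SKO 1 to 4, against 97.6, 71.1, 114 and 188 in CTL 1 to 4. Its groups overlapped, with the lowest and the highest value both in SKO, and it did not pass (log2 fold change 0.33, SE 0.44, 95% confidence interval -0.66 to 1.31, limma adjusted p = 0.632). The beta B subunit exceeded beta A in every library, by log2 differences of 5.56 to 6.68 in SKO libraries and 4.75 to 6.28 in CTL libraries, before their exon lengths of 4255 and 6390 bases are allowed for.

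Fshr (chromosome 17, 88984952 to 89200675), the only route by which FSH acts on Sertoli cells, had 1617, 1509, 1837 and 2549 in SKO 1 to 4, against 830, 891, 920 and 1613 in CTL 1 to 4. SKO 2 lay below CTL 4, and the other 3 SKO libraries lay above every CTL library, SKO 1 by a narrow margin. Fshr was 1.79-fold higher (1878 ± 467 in SKO libraries and 1063 ± 368 in CTL libraries, SD, n = 4 each; log2 fold change 0.84, SE 0.25, limma adjusted p = 0.0413). The call was lost without any 1 of 7 libraries (all but CTL 4) and with median-ratio factors (limma adjusted p = 0.0599).

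Shbg, which in the testis encodes the androgen-binding protein that Sertoli cells release (chromosome 11, 69610282 to 69618026), had 4138, 3972, 4145 and 2300 in SKO 1 to 4, against 2021, 1565, 751 and 983 in CTL 1 to 4. No SKO library reached down to a CTL value. It had the lowest adjusted p of the 9 genes, with a 2.85-fold rise (3638 ± 896 in SKO libraries and 1330 ± 574 in CTL libraries, SD, n = 4 each; log2 fold change 1.51, SE 0.32, limma adjusted p = 0.0168). Clu, the chaperone-like glycoprotein clusterin (chromosome 14, 65968483 to 65981548), had 215844, 172828, 176964 and 74721 in SKO 1 to 4, against 100467, 98512, 24239 and 32005 in CTL 1 to 4. It was the most abundant of the 9 genes. Its log2 fold change of 1.501 (SE 0.51) was near that of Shbg, but the libraries of each group lay farther apart and it did not pass (limma adjusted p = 0.0651). Trf, the iron carrier transferrin (chromosome 9, 103208876 to 103230286), had 1642, 4362, 1665 and 849 in SKO 1 to 4, against 1206, 1643, 1113 and 1248 in CTL 1 to 4. SKO 2 stood far above every other library, SKO 4 was the lowest of all, and the other 2 SKO values lay near that of CTL 2. Trf did not pass (log2 fold change 0.47, SE 0.41, 95% confidence interval -0.45 to 1.39, limma adjusted p = 0.441), and without SKO 2 its log2 fold change was 0.04. SKO 2 also had the highest summed Leydig cell markers (71751, against 32785 to 44827 in the other SKO libraries and 42117 to 56750 in CTL libraries) and endothelial markers (8368, against 3815 to 5366 in the other SKO libraries and 4592 to 8190 in CTL libraries), and their part in its Trf value was not tested. In GENCODE M21, 63.5% of the exon bases of Trf also belong to the read-through gene Gm20425 on the same strand, which is not in the table, so its own level is uncertain. The other 8 genes share no exon bases with another annotated gene.

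Per kilobase of exon, Clu was the highest of the 9 genes, at 46578 ± 17492 in SKO libraries and 18564 ± 12026 in CTL libraries (SD, n = 4 each). Amhr2 followed, at 19728 ± 3905 in SKO libraries and 11328 ± 2928 in CTL libraries. Inha, the third, had 17785 ± 6664 in SKO libraries and 8196 ± 4584 in CTL libraries. The ranges of Clu and Amhr2, and of Amhr2 and Inha, overlapped within each group, so their order is not beyond the spread between libraries. All 3 stood apart from the next genes. Shbg, Inhbb and Amh came next by their means, at 2416 ± 595, 2315 ± 445 and 1566 ± 498 per kilobase in SKO libraries and 883 ± 381, 1396 ± 125 and 552 ± 310 in CTL libraries. Shbg and Inhbb changed places between the groups, and their ranges overlapped in both. Fshr (796 ± 198 in SKO libraries and 451 ± 156 in CTL libraries) and Trf (641 ± 463 in SKO libraries and 392 ± 70.4 in CTL libraries) had lower means and overlapped. The ranges of both also overlapped that of Amh in each group, and in CTL the range of Fshr overlapped that of Shbg. Inhba was far below the rest, at 11.0 to 38.6 per kilobase in SKO libraries and 11.1 to 29.5 in CTL libraries.

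**Figure D2:**
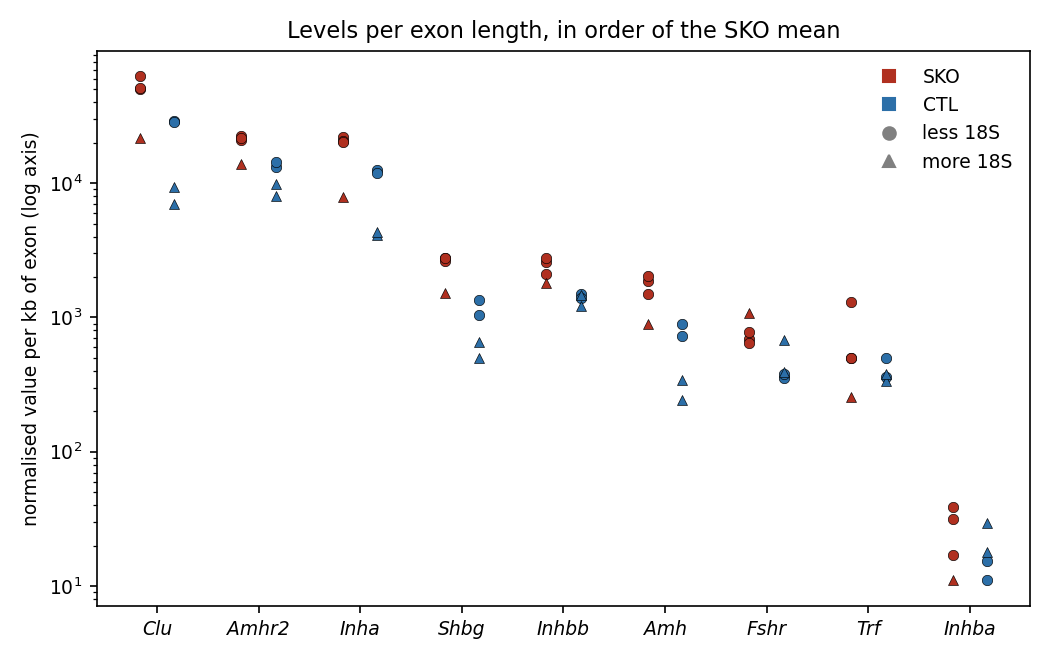
Normalised value per kilobase of exon (log axis) of each gene in every library, ordered by the SKO mean, with SKO left of CTL; circles are libraries with less 18S RNA and triangles those with more. Clu, Amhr2 and Inha form the top tier, and Inhba lies below 40 per kilobase in every library.

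For several of the 9 genes, much of the spread within groups lay between the 18S sets. In CTL the sets also differed in depth. CTL 1 and CTL 2 (less 18S) stood for about 258 and 225 M reads by the weaker signal. CTL 3 and CTL 4 (more 18S) stood for about 70.1 and 57.4 M, so set and depth cannot be told apart within CTL. Within CTL, libraries with less 18S had 3.54-fold more Clu, 2.87-fold more Inha, 2.78-fold more Amh, 2.07-fold more Shbg and 1.54-fold more Amhr2 than libraries with more. Within SKO the same ratios were 2.52, 2.69, 2.01, 1.78 and 1.55, with SKO 4 the only library with more 18S. SKO 4 also stood for the fewest reads, about 40.6 M, and had the highest mitochondrial share, 4.53%. The part of these in the SKO ratios was not tested. Fshr went the other way, with ratios of 0.649 in SKO and 0.679 in CTL. Inhbb had ratios of 1.37 in SKO and 1.07 in CTL, and Trf 3.01 in SKO and 1.21 in CTL. Inhba had opposite directions, with 2.64 in SKO and 0.559 in CTL. The median log2 difference between the sets for the 12 other Sertoli markers was 0.22 in SKO and 0.03 in CTL, but single markers differed widely. Cst9 had 8217 and 9620 in CTL 1 and CTL 2, against 1192 and 1830 in CTL 3 and CTL 4. Sox9 went the other way, with 3323 and 2818 in CTL 1 and CTL 2, against 3996 and 4183 in CTL 3 and CTL 4. A split between the sets was thus not particular to the 9 genes. Across 16419 genes with a GENCODE transcript, the set difference had a Spearman correlation of 0.03 with transcript length in SKO and -0.47 in CTL, and of 0.11 with GC content in SKO and 0.10 in CTL, as a description over genes that share libraries. Amh is short and GC-rich (1670 bases, 65.4% GC), as is Inha (1475 bases, 59.7%). Fshr, with 2360 bases and 46.6% GC, is at the percentiles 34.6 of length and 34.4 of GC. Clu, with the largest CTL ratio, has 1810 bases and 55.6% GC, and Inhbb has 4255 bases and 60.9% GC. The part of length and GC in the set differences was not tested.

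Within the 5 libraries with less 18S (3 SKO and 2 CTL), 7 of the 9 genes rose and 0 fell, against 18.8% of genes risen over all. The log2 fold changes there were 1.20 for Shbg, 1.13 for Amh, 0.93 for Fshr, 0.91 for Clu, 0.79 for Inha, 0.77 for Inhbb and 0.65 for Amhr2, with standard errors of 0.10 to 0.17 and limma adjusted p-values of 0.0165 to 0.0174. Clu and Inha passed there and not over all 8 libraries. Inhba (1.03, SE 0.39, adjusted p = 0.0788) and Trf (0.70, SE 0.43, adjusted p = 0.224) did not pass. With the set as a covariate in a fit of all 8 libraries, the same 7 genes rose, against 16.4% over all genes, at log2 fold changes of 0.65 (Inhbb) to 1.31 (Amh) and limma adjusted p-values of 0.00453 to 0.0107. In the 3 libraries with more 18S, SKO 4 and the CTL pair, the log2 fold changes of Amh, Shbg and Clu were 1.63, 1.42 and 1.43, and those of Inhba and Trf were -0.996 and -0.46. With 1 SKO library in that set these are values without a check of the spread in SKO. A test of the difference between the sets, added after the data were seen and resting on SKO 4 for its set, passed for none of the 9 genes and for 0.00586% of all genes (limma adjusted p from 0.27 for Inhba to 0.9996 for Amhr2, with 1 at an unadjusted p below 0.05).

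Other markers of Sertoli cells showed changes of like size. Of 12 such markers outside the 9 genes, 10 rose and 0 fell, with a median log2 fold change of 1.01, and 10 had every SKO library above every CTL library. Over all genes 11.9% rose, and 15.6% had every SKO library above every CTL library. Rhox8, a homeobox gene, rose by 1.24 on the log2 scale and Sox9, the transcription factor that sets Sertoli fate, by 1.16 (limma adjusted p = 0.0257 and 0.0147). The mean log2 value of these markers was 12.60 to 12.95 in SKO libraries and 11.43 to 11.94 in CTL libraries. When libraries were scaled to hold the median of these 12 markers level, limma called 0 of the 9 genes higher and 0 lower, with 0 of 9 at an unadjusted p below 0.05, against 0.0938% of all genes risen, 62.9% fallen and a shift of the median of all genes to -0.89. On that scale the log2 fold changes of Amh, Shbg, Clu and Inha were 0.69, 0.57, 0.56 and 0.26, and those of Fshr, Amhr2, Inhbb, Trf and Inhba were -0.10, -0.13, -0.23, -0.47 and -0.58 (limma adjusted p from 0.106 for Shbg to 0.773 for Fshr). The 95% confidence intervals were wide, from -0.15 to 1.53 for Amh and from -0.07 to 1.22 for Shbg, so the test does not show that the genes kept pace with the other markers. With the 18S set also as a covariate, a fit added after the data were seen, Amh stood at 0.41 and Shbg at 0.37 (limma adjusted p = 0.0939 and 0.0802).

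**Figure D3:**
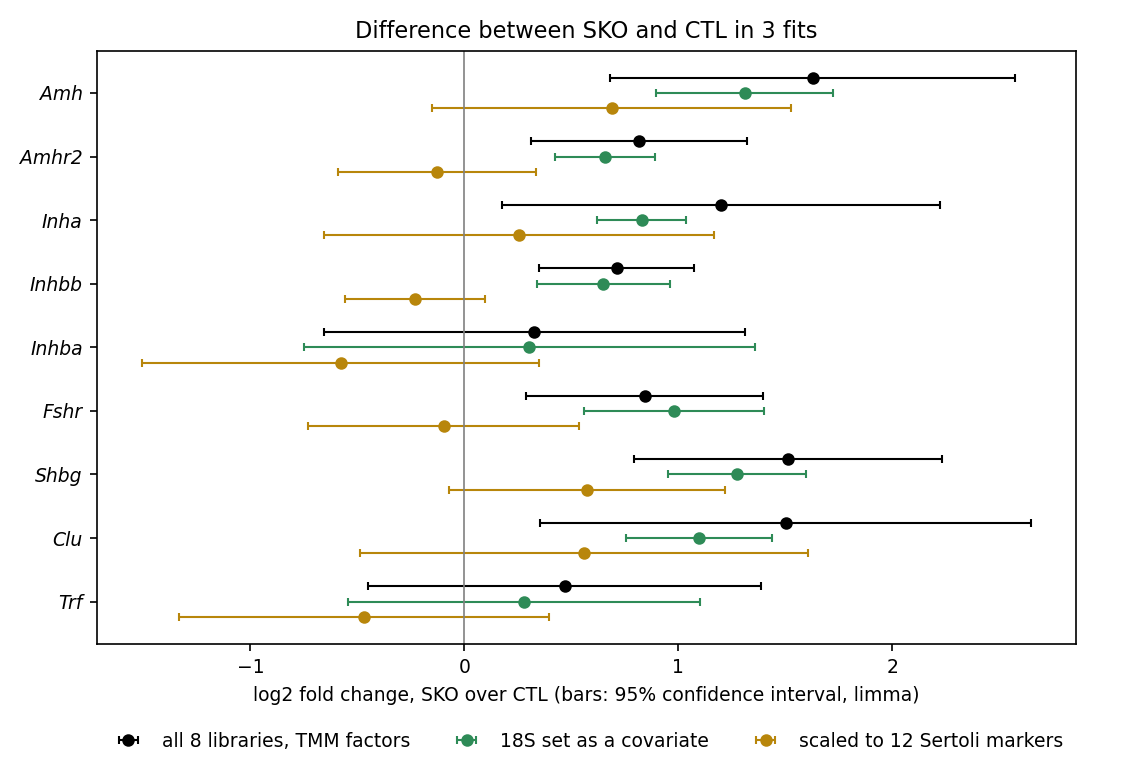
Log2 fold change of SKO over CTL with its 95% confidence interval for each gene, from all 8 libraries with TMM factors (black), with the 18S set as a covariate (green) and with libraries scaled to 12 other Sertoli markers (ochre). Black and green points lie above 0 for all 9 genes, and every ochre interval includes 0.

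Amh marks immature and Shbg, Fshr and Trf mature Sertoli cells, so Amh was set against each in every library as a difference of log2 values, with no test. Against Shbg it was -0.42, -0.66, -0.30 and -0.62 in SKO 1 to 4 and -0.44, -0.35, -0.89 and -0.78 in CTL 1 to 4. These ranges overlapped, and the means of -0.50 ± 0.17 in SKO libraries and -0.62 ± 0.26 in CTL libraries (SD, n = 4 each) lay closer than either spread. Against Fshr it was 0.93, 0.73, 0.87 and -0.77 in SKO 1 to 4 and 0.84, 0.45, -1.18 and -1.49 in CTL 1 to 4, so it followed the 18S set in both groups. Against Trf it was 0.91, -0.80, 1.02 and 0.81 in SKO 1 to 4 and 0.30, -0.42, -1.45 and -1.12 in CTL 1 to 4, where only SKO 2 fell among the CTL values. Against the mean of the 3 markers, Amh stood at 0.14 ± 0.42 in SKO libraries and -0.54 ± 0.71 in CTL libraries (SD, n = 4 each), a difference of 0.69 that is smaller than the CTL spread. Of the genes of Sertoli maturation outside the 9, 11 were in the table. Of these, 5 rose and 0 fell (median log2 fold change 0.88), beside 11.9% risen over all genes. Log2 fold changes were positive for 9 of the 11, and Krt8 (-0.40), Ncam1 (-0.64) and Krt18 (1.13) did not pass. The list holds genes that change as Sertoli cells mature without a set direction, so its count and median do not speak of maturity. Cldn11 and Rhox5 are also among the 12 Sertoli markers. Id2, an inhibitor of helix-loop-helix factors, rose by 1.14 and Gja1, the gap junction gene connexin 43, by 1.07 (limma adjusted p = 0.029 and 0.0186).

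**Figure D4:**
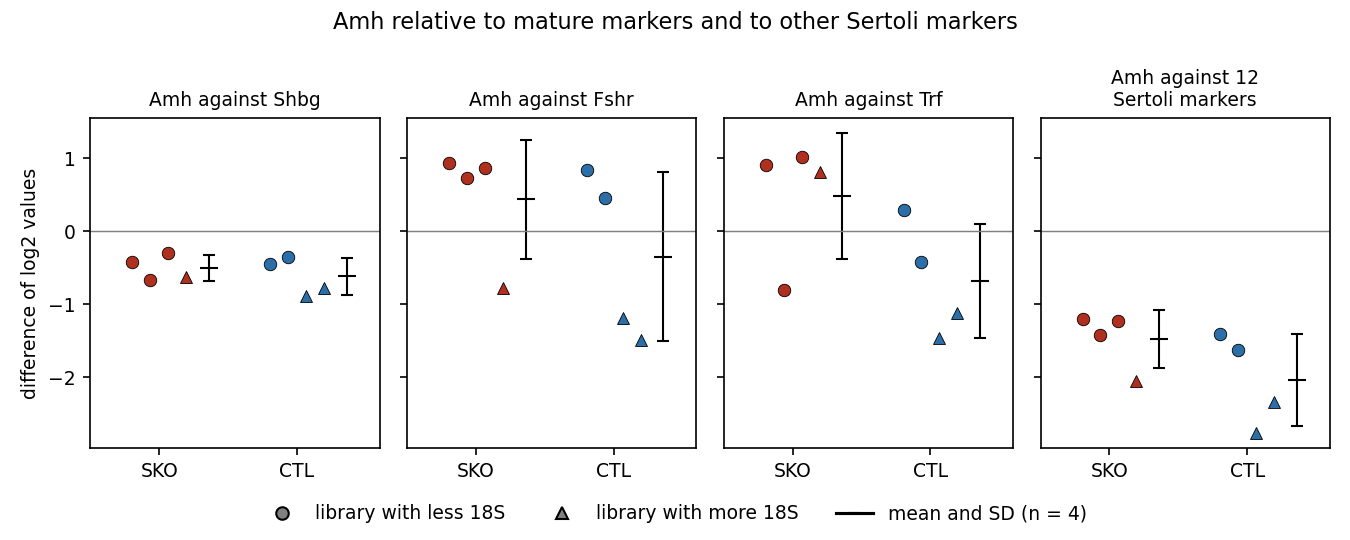
Difference of log2 values between Amh and Shbg, Fshr, Trf or the mean of 12 other Sertoli markers in every library, with SKO left of CTL; symbols mark the 18S sets and bars the mean and SD of 4 libraries. Against Shbg all 8 values lie between -0.89 and -0.30, whereas against Fshr the 3 libraries with more 18S lie below 0 and the other 5 above it.

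Of 13 transcription factor genes that act on the Amh, Inha or Fshr promoters, 10 rose and 1 fell, with a median log2 fold change of 0.69. Over all genes 11.9% rose and 7.93% fell. Beside Sox9, Gata1 rose by 0.96 (limma adjusted p = 0.0147). Zfpm2, the cofactor FOG2 of GATA factors, fell by 0.60 (671 ± 137 in SKO libraries and 1008 ± 114 in CTL libraries, SD, n = 4 each; limma adjusted p = 0.048), a call that was lost without any 1 of the 8 libraries. Usf1, Usf2 and Nr5a1, named after their values were seen because their motifs were searched, rose by 0.88, 0.59 and 0.65 (limma adjusted p = 0.0137, 0.0235 and 0.0159). Sox9, Sox8 and Wt1 belong to the 12 Sertoli markers as well. Scaled to those markers, 0 of the 13 genes rose and 1 fell, where 62.9% of all genes fell. The median of the list was then -0.25.

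Of 21 listed genes for receptors, SMAD and binding proteins of AMH, activin and inhibin, 19 were in the table (not Inhbc and Inhbe). Of these, 2 rose and 0 fell, with a median log2 fold change of 0.36, beside the 11.9% risen over all genes. When scaled to the Sertoli markers 0 rose and 9 fell, where 62.9% of all genes fell. Smad7, an inhibitory SMAD, rose by 1.25 (800 ± 218 in SKO libraries and 334 ± 90.5 in CTL libraries, SD, n = 4 each; limma adjusted p = 0.0156). Smad3, which carries activin signals, rose by 0.96 (2633 ± 500 in SKO libraries and 1347 ± 210 in CTL libraries, SD, n = 4 each; limma adjusted p = 0.0137). Of 23 genes between the FSH receptor and cyclic AMP responses, 4 rose and 0 fell (median 0.18). With library totals 11 rose, where 28.6% of all genes rose. Scaled to the Sertoli markers 0 rose and 14 fell, where 62.9% of all genes fell. Gnas, the stimulatory G protein alpha subunit, rose by 0.84 and Arrb2, a beta-arrestin that quenches receptor signals, by 0.72 (limma adjusted p = 0.0134 and 0.0208). The kit does not mark strand. Exons of 2 annotated genes overlap those of Gnas, and Gm20721 on the opposite strand alone covers 13.1% of its exon bases.

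Other secreted products of Sertoli cells were higher in part: of 21 genes 7 rose and 0 fell (median log2 fold change 0.82). Over all genes 11.9% rose, and scaled to the Sertoli markers the median of this list was -0.12. Cst9, Cst12 and Dhh are also among the 12 Sertoli markers. Ctsl, the protease cathepsin L, rose by 1.37 and Bmp4, a bone morphogenetic protein, by 1.18 (limma adjusted p = 0.0438 and 0.0174). Exons of 2 annotated genes overlap those of Ctsl, and the antisense gene Gm47123 alone covers 26.9% of its exon bases. Of 15 genes for the uptake of the carrier proteins and for iron, 5 rose and 1 fell (median 0.40). Slc40a1, the iron exporter ferroportin, rose by 1.37 (706 ± 129 in SKO libraries and 278 ± 96.0 in CTL libraries, SD, n = 4 each, limma adjusted p = 0.0134), and Ftl1, the ferritin light chain, by 0.88 (limma adjusted p = 0.0157). Exons of 2 annotated genes overlap those of Ftl1, and Gm10252 alone covers 26.5% of its exon bases. Cubn, the endocytic receptor cubilin, fell by 0.60 (344 ± 48.8 in SKO libraries and 523 ± 46.4 in CTL libraries, SD, n = 4 each; limma adjusted p = 0.0399), a call lost without any 1 of 7 libraries.

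Markers of other cells gave these values, where 11.9% of all genes rose and 7.93% fell. Of 8 germ cell markers 1 rose (Dazl), 3 fell (Ddx4, Piwil1 and Hspa2) and 4 did not pass, with a median log2 fold change of -0.31. Their summed levels in SKO libraries lay below those of every CTL library. Hspa2 was a large part of that sum, with means of 144018 in SKO libraries and 206485 in CTL libraries. Of 5 myoid markers 3 rose (median 0.58), with sums of 35336 to 41153 in SKO libraries and 20293 to 24137 in CTL libraries. Of 8 macrophage markers 1 rose (median 0.56), of 8 Leydig cell markers 1 rose (median -0.05) and of 6 endothelial markers none passed (median 0.03). Within the libraries with less 18S and those with more, the median log2 fold changes were -0.56 and 0.20 for germ cell markers, 0.87 and 0.96 for the 12 Sertoli markers and 0.16 and -0.47 for Leydig cell markers. Of 5 red blood cell markers 1 fell (Alas2, median -0.19). Of 7 epididymis markers, where Clu is also made, 1 was in the table and did not pass, at 64.1 to 160 in SKO libraries and 98.1 to 167 in CTL libraries. Their part in the rises of the 9 genes was not tested.

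**Figure D5:**
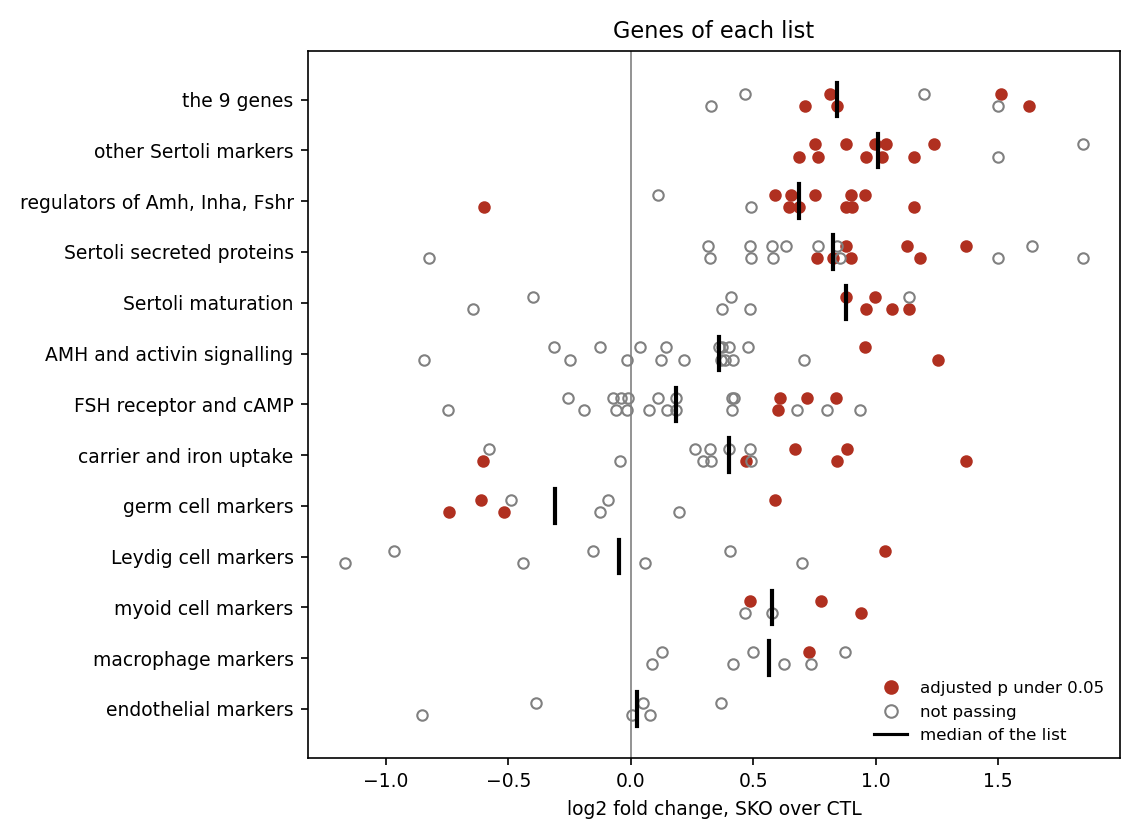
Log2 fold change of SKO over CTL for each gene of 13 lists, 1 row a list; filled points have a limma adjusted p under 0.05 and black lines are list medians. The 9 genes (median 0.84) and the other Sertoli markers (1.01) lie right of 0, and the median of the germ cell markers (-0.31) left of it; scaled to the Sertoli markers, the median of the 9 genes is -0.10.

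Within groups, 5 of the genes moved together from library to library. Deviations from the group mean had Pearson r over 8 libraries of 0.98 between Amh and Shbg, 0.98 between Amh and Clu, 0.95 between Amh and Inha and 0.86 between Amh and Amhr2, as a description of libraries that also share their 18S set. Fshr ran against these, with r of -0.56 (Amh) to -0.87 (Amhr2). Genes outside the 9 with the closest pattern were Grb2 and Pdia5 for Amh, Ddx39a and Ppcs for Inha, Rasl11b for Shbg, Cst9 and Ctsl for Clu, Zdhhc16 and Zc3h15 for Fshr, and Slc16a9 and D17H6S56E-5 for Trf, with r of 0.986 to 0.998 over 8 libraries. Grb2, Pdia5, Ppcs, Rasl11b and Zdhhc16 rose between the groups. Ddx39a, Zc3h15, Slc16a9, D17H6S56E-5 and Cst9 did not pass.

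The calls rest on single libraries. Without SKO 3, limma called 0 of all genes and 0 of the 9 (smallest adjusted p 0.0569), although 4784 genes, and 6 of the 9, had an unadjusted p below 0.05. Of the 9 genes, 2 were called without SKO 1, 1 without SKO 2 and 6 without SKO 4, where 4.76%, 4.86% and 14.4% of all genes rose. Without CTL 3, 1 was called and without CTL 4, 3, where 4.03% and 11.1% of all genes rose. Without CTL 1 or CTL 2, 5 were called (Clu in place of Fshr), where 8.16% and 6.50% of all genes rose. Without both CTL 1 and CTL 2, Amh was 4.99-fold higher (limma adjusted p = 0.00279). These are the only CTL libraries with less 18S, whereas SKO 4 is the only SKO library with more. Group and 18S set are therefore largely confounded in that fit. With the set as a covariate over all 8 libraries, Amh was 2.48-fold higher. Without any 1 library the log2 fold changes stayed between 1.24 and 1.88 for Amh, 1.22 and 1.72 for Shbg, 0.62 and 0.82 for Inhbb, 0.63 and 0.97 for Amhr2 and 0.69 and 1.03 for Fshr. The call was lost in 5 of these 8 fits for Amh, 5 for Amhr2, 7 for Fshr, 3 for Inhbb and 1 for Shbg.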

How the data were processed

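RNA was isolated with TRIzol and libraries were built with a NEBNext Ultra kit that does not mark strand, per the labels' protocols. The submitters' processing notes name CASAVA, fastp, HISAT2 2.0.5, featureCounts 1.5.0-p3 and mm10; the sources used here do not say how multiply mapped reads were counted. The deposited values were treated as a score, since regular gaps between low values in 6 libraries show that the authors had scaled and rounded whole read counts; in CTL 1 and CTL 2 the scaling rests on a weaker signal, so no count test was run. Groups were read from the titles.

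A gene was tested if 4 or more libraries reached a value of 25. TMM factors (30% and 5% trimmed) were computed directly and divided out, and limma 3.58.1 (R 4.3.3; variance trend, no covariate) was run on log2(value + 5), a scale that understates the fold changes of low genes. Adjustment (Benjamini-Hochberg, two-sided tests, threshold 0.05) covered all 17066 genes. The code was tested on simulated data. The 9 genes and all lists were chosen with earlier results of these data known.

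Beside the 9 genes the text gives values for up to 2 risen and 2 fallen genes with the largest changes in each of 7 lists, and names the 2 genes most like each of 6 of the 9, of which 1 is not reported here; other names were chosen after their values were seen. Exon lengths and overlaps come from GENCODE M21, and positions and promoters from RefSeq (GRCm38.p6, the assembly of mm10); Amh, Clu and Trf had no match among the promoters. Libraries were put in the 18S sets at a limit of 0.5%. No pair of libraries looked like a duplicate (lowest chi-square per gene 36.3). Alternatives were other scaling factors, filters and added constants, each library left out, the replicate number as a block, and the 18S sets. Depth limits low genes: Inhba had about 30.1 reads in SKO 4.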

Additional observations from a re-analysis of the deposited data

Results flagged for a closer look

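Among the 18 groups of 4 libraries of the 9 genes (SKO and CTL), 3 held a library that stood apart from the other 3 by Dixon's criterion; about 1 in 20 groups is marked by chance. Inha was at 11588 in SKO 4, against 30035 to 32697 in the other SKO libraries, and Shbg at 2300, against 3972 to 4145. Fshr was at 1613 in CTL 4, against 830 to 920 in the other CTL libraries. Among other named genes, the iron exporter gene Slc40a1 was at 419.8 in CTL 4, against 209 to 243. The same libraries stood apart in 4 genes chosen because they follow Inha or Fshr within groups, which the choice itself brings about. Of those like Inha, Ppcs was at 871.7 in SKO 4, against 1519 to 1568, and Ddx39a at 9389, against 10657 to 10901. Of those like Fshr, Zdhhc16 was at 1542 in CTL 4, against 1112 to 1177, and Zc3h15 at 15164, against 11639 to 11654. SKO 4 is the single SKO library with more 18S RNA, and CTL 4 shares that set with CTL 3; the part of the set in these values was not tested.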

How the results depend on the processing

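Other filters and added constants left the count of calls among the 9 genes at 5, though the stricter filter removed Inhba. Without 1 library at a time, calls over all genes numbered 0 to 2455 risen and 0 to 1526 fallen, and those among the 9 genes 0 to 6. The log2 fold changes were then 1.24 to 1.88 for Amh, 0.63 to 0.97 for Amhr2, 0.88 to 1.56 for Inha, 0.62 to 0.82 for Inhbb, 0.69 to 1.03 for Fshr, 1.22 to 1.72 for Shbg and 1.07 to 1.83 for Clu, and values of both signs occurred for Ddx39a (-0.12 to 0.024), Zc3h15 (-0.082 to 0.067), Slc16a9 (-0.26 to 0.14) and D17H6S56E-5 (-0.73 to 0.016).

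With median-ratio factors Fshr had 0.78 and lost its call, and Zc3h15 had -0.063. With upper quartile factors Ddx39a had 0.020 and Slc16a9 0.012. With library totals 4885 genes rose and 456 fell, Inha (1.49) and Clu (1.79) passed, and Ddx39a (0.27) and Slc16a9 (0.25) turned positive. Scaled to the Sertoli markers, 16 genes rose and 10738 fell, with 0 of the 9 called. Amh (0.69) and Shbg (0.57) lost their calls, and Amhr2 (-0.13), Inhba (-0.58), Inhbb (-0.23), Fshr (-0.10), Trf (-0.47), Gnas (-0.10), Arrb2 (-0.218), Ftl1 (-0.058), Grb2 (-0.059), Zdhhc16 (-0.38) and Zc3h15 (-0.94) turned negative. With the 18S set as a covariate as well, a fit added after the data were seen, 20 genes rose and 11719 fell, with 0 of the 9 called. Amh then had 0.41, Shbg 0.37 and Fshr 0.078, and negative values were found for Amhr2 (-0.25), Inha (-0.077), Inhba (-0.57), Inhbb (-0.26), Trf (-0.62), Gnas (-0.11), Arrb2 (-0.15), Ftl1 (-0.12), Gata1 (-0.054), Grb2 (-0.10), Ppcs (-0.16), Zdhhc16 (-0.274), Zc3h15 (-0.84) and Rasl11b (-0.015).

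Calls in the 5 low-18S libraries alone numbered 3194 risen and 2283 fallen, Inha (0.79) and Clu (0.91) passed, and Slc16a9 had 0.083. The other 3 libraries hold 1 SKO library, assumed to vary like the CTL pair, so their 51 risen and 287 fallen genes, and 1 call among the 9 (Clu), say nothing of a call lost or gained. The values there were 1.63 for Amh, 0.66 for Amhr2, 0.44 for Inhbb, 1.07 for Fshr, 1.42 for Shbg, 1.43 for Clu, -0.996 for Inhba and -0.46 for Trf. With the set as a covariate 2210 genes fell, and Inha (0.83) and Clu (1.10) passed. Without the 2 deepest libraries 1798 genes rose and 2322 fell (43.6% of calls higher in SKO), Amh had 2.32, Inha (1.91) and Clu (2.37) passed, Fshr (0.54) did not, and Inhba (-0.11), Ddx39a (0.028) and Zc3h15 (-0.14) changed sign. Those 2 libraries, CTL 1 and CTL 2, are the only CTL libraries with less 18S. Group and 18S set are therefore largely confounded in that fit. The cause of these changes was not tested.

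With the replicate number as a block, 7 of the 9 genes were called, Inha (1.20) and Clu (1.501) in addition, and 2162 genes rose and 1701 fell. The numbers were not taken to pair the libraries, since deviations of same-numbered libraries had correlations of 0.67, 0.01, 0.08 and 0.23.

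Counts in the lists moved as well: within the libraries with less 18S, risen genes numbered 13 of 21 other secreted proteins, 10 of 15 uptake and iron genes, 7 of 23 genes of FSH signalling and 5 of 19 of AMH and activin signalling, while 18.8% of all genes rose there, against 11.9% in all 8 libraries. With library totals the same lists had 12, 9, 11 and 5 risen, where 28.6% of all genes rose. Scaled to the Sertoli markers they had 0 risen and 2, 7, 14 and 9 fallen, where 62.9% of all genes fell. Without SKO 3 each list had 0 calls.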
